A study of Drosophila sechellia and Drosophila melanogaster and Drosophila simulans with 18 samples.

Results

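The genes described here are 10 nucleolar genes of *D. melanogaster* that make and process ribosomal RNA (rRNA): Fib, Nop60B, Nop56, nop5, Nopp140, RpI1, RpI135, Tif-IA, bys and Ns1. They were taken by gene symbol, and the set was chosen with earlier results of these data known. All 10 were found among the 17649 genes of the *D. melanogaster* table, where ns1 is spelled Ns1. The *D. simulans* table (15372 genes) and the *D. sechellia* table (17273 genes) list 0 of the 10 by symbol. Most of their genes carry only a number that was not paired with an ortholog here, so a response of these genes in those species was not analysed. RNA was sequenced from whole adult females of *D. melanogaster* (strain 14021-0231.36) after 24 h on instant food with 0.23% hexanoic acid (HA) or on control food without it, and in the same way for *D. simulans* (14021-0251.195) and *D. sechellia* (14021-0428.25). HA is a medium-chain fatty acid, and *D. sechellia* lives on a fruit that gives it off. Flies of both diets were raised on cornmeal medium at 20 °C and were up to a few days old, and each of the 3 libraries per diet and species came from several whole flies pooled. The labels name no transgene or deletion, and each species is represented by 1 strain.

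The nucleolus is the part of the nucleus in which ribosomes are assembled. RNA polymerase I transcribes the long rRNA precursor there, and small nucleolar ribonucleoproteins (snoRNPs) modify some of its nucleotides. A large set of assembly factors cuts the precursor and folds it onto ribosomal proteins. In adult *Drosophila* females the ovary makes ribosomes at a high rate, since nurse cells supply the egg with them, and nucleolar genes are strongly expressed in germ cells.

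The deposited table gives 1 FPKM value per gene and diet (fragments scaled by transcript length and library depth), for which Cuffdiff pooled all 3 libraries on the diet. No value per library was used, and the authors' own test of the diet was set aside. No SD, standard error or test is therefore given for any gene, and every difference below describes 2 pooled values. The table gives no read count behind a value. A difference is written as the log2 fold change of HA over control food, log2(FPKM + 0.1), and a gene is said to be past the fold when this is at least 0.3 in size, which is a ratio of 1.23. The threshold is a convention and not a test.

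Of the 10 nucleolar genes, 9 had a higher FPKM on HA food than on control food, and 1, Tif-IA, had a lower one. The differences were small. Their log2 fold changes had a median of 0.25 and ran from -0.10 to 0.65, and the median of the 10427 *D. melanogaster* genes with a mean FPKM of at least 1 was 0.0028. Past the fold were 4 of the 10 genes, all higher on HA food: Nopp140, RpI1, RpI135 and nop5. Among all genes with a mean FPKM of at least 1, 8.97% were past the fold in this direction and 18.1% in the other, in which 0 of the 10 lay. A higher value of any size was found for 50.4% of all genes. Among the 6527 genes within the same range of mean FPKM as the 10, the median was 0.02, and 7.63% were past the fold upward. The gene nearest above the threshold was nop5, at 0.36, and the nearest below it was Nop60B, at 0.26.

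**Figure D1:**
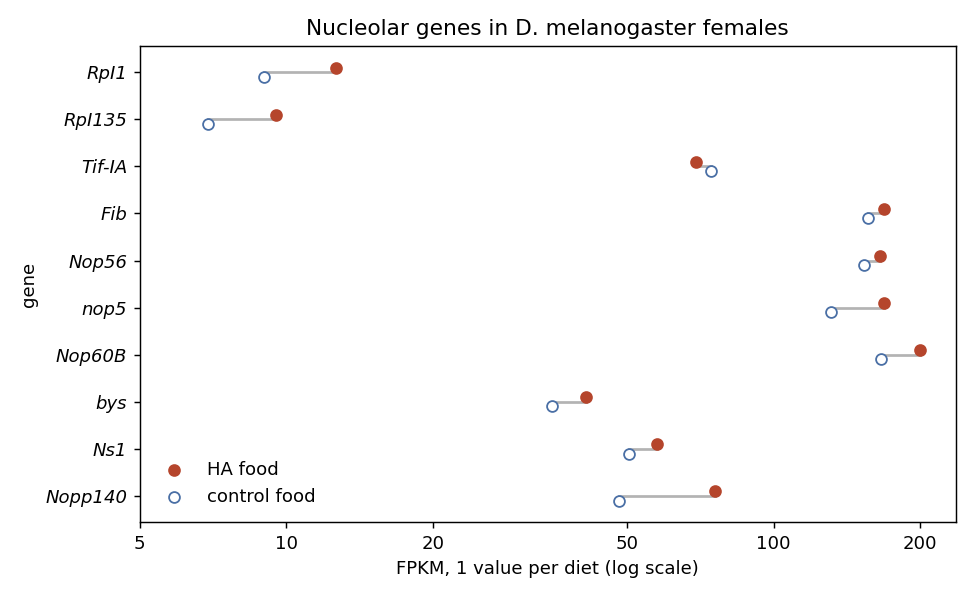
FPKM of the 10 nucleolar genes in *D. melanogaster* females on HA food (filled) and control food (open), with 1 pooled value per diet and no error available, on a log axis. The filled point lies right of the open one for 9 of the 10 genes, and left of it for Tif-IA, at 69.4 against 74.2 FPKM.

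RpI1 and RpI135 encode the large subunits that form the catalytic core of RNA polymerase I, the enzyme of rRNA transcription. RpI1 (FBgn0019938, named Polr1A in the current annotation) lies on chromosome 2R of the BDGP6 genome, from 14595611 to 14601216 on the minus strand, with 10 exons. It had 12.6 FPKM on HA food and 8.99 FPKM on control food, a log2 fold change of 0.49. RpI135 (FBgn0003278, now Polr1B) lies on 2L, from 404285 to 407969 on the plus strand, with 3 exons, and had 9.51 FPKM on HA food and 6.91 FPKM on control food, a log2 fold change of 0.45. These are the least abundant of the 10 genes per length on either diet. Their levels moved together, so that the ratio of RpI1 to RpI135 was 1.33 on HA food and 1.30 on control food.

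Tif-IA encodes the factor that recruits RNA polymerase I to the rRNA gene promoter, and in mammals it is the point at which growth signals act on rRNA transcription. The gene (FBgn0032988) lies on 2L from 22249876 to 22258260, on the plus strand, with 6 exons. It was the only one of the 10 with a lower value on HA food, 69.4 FPKM against 74.2 FPKM on control food, and its log2 fold change of -0.10 was inside the threshold. Per length it was more abundant than the polymerase subunits it serves, with a ratio of Tif-IA to RpI1 of 5.48 on HA food and 8.26 on control food.

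The other proteins of rRNA transcription were taken from a list of 9 genes, to which RpI1, RpI135 and Tif-IA belong. RpI12, a small subunit of the polymerase, had 16.4 FPKM on HA food and 12.8 FPKM on control food (log2 fold change 0.35). CG3756 and l(2)37Cg, the subunits that polymerases I and III share (Polr1C and Polr1D in the current annotation), had log2 fold changes of 0.11 and 0.27. The promoter complex of *Drosophila*, which contains Udd, TAF1B and TAF1C-like, differed within itself. The gene udd had 13.2 FPKM on HA food and 26.5 FPKM on control food, a log2 fold change of -0.996, while TAF1B had 7.10 FPKM on HA food and 6.34 FPKM on control food and TAF1C-like 6.88 FPKM on HA food and 6.36 FPKM on control food. Of the 9 genes 3 were past the fold upward and 1, udd, downward, with a median log2 fold change of 0.16.

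RNA polymerase II, which makes messenger RNA, served as a comparison. None of its 7 specific subunits passed the fold, 2 were higher and 5 lower on HA food, and their median log2 fold change was -0.07. The subunits equivalent to RpI1 and RpI135 are RpII215, at 11.7 FPKM on HA food and 9.88 FPKM on control food (log2 fold change 0.24), and RpII140, at 21.70 FPKM on HA food and 18.05 FPKM on control food (0.26). Both large subunits of polymerase II were therefore also higher on HA food. The ratio of RpI1 to RpII215 was 1.08 on HA food and 0.91 on control food. Of 4 RNA polymerase III genes sought, 2 were listed by symbol: RpIII128, a subunit, and Brf, an initiation factor and not a subunit. They had log2 fold changes of 0.22 each. These differences between enzymes were not tested.

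Fib, Nop56 and nop5 encode 3 of the core proteins of the box C/D snoRNPs, which methylate rRNA at sites chosen by a guide RNA. Fib is fibrillarin, the methyltransferase, and Nop56 and nop5 (Nop58 in yeast) are related scaffold proteins. Fib (FBgn0003062) lies on 2R from 23072909 to 23074725 on the minus strand, with 3 exons, and had 168.7 FPKM on HA food and 156.4 FPKM on control food (log2 fold change 0.11). Nop56 (FBgn0038964) lies on 3R from 22419095 to 22421068 on the minus strand, with 3 exons, and had 165.2 FPKM on HA food and 153.5 FPKM on control food (0.11). The gene nop5 (FBgn0026196) lies on 2L from 6916753 to 6918743 on the minus strand, with 2 exons, and had 168.5 FPKM on HA food and 131.0 FPKM on control food (0.36). On control food nop5 was thus the least abundant of these 3 partners, with a ratio of Fib to nop5 of 1.19 and of Nop56 to nop5 of 1.17. On HA food the levels lay closer, with ratios of 1.00 and 0.98. The fourth core protein, encoded by hoip, also belongs to a particle of the spliceosome, and its mRNA was far more abundant, at 932 FPKM on HA food and 978 FPKM on control food (log2 fold change -0.07).

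Nop60B encodes the pseudouridine synthase of the box H/ACA snoRNPs, known as dyskerin in mammals. The gene (FBgn0259937) lies on 2R from 24174877 to 24186343 on the plus strand, with 5 annotated transcripts and 7 exons in the one with the longest coding sequence. It was the most abundant of the 10 genes, with 199.6 FPKM on HA food and 166.2 FPKM on control food (log2 fold change 0.26). Its partners went in both directions. CG4038 (Gar1 in the current annotation) had 80.6 FPKM on HA food and 50.1 FPKM on control food (0.68), and CG7637 (Nop10) had 283.3 FPKM on HA food and 204.0 FPKM on control food (0.47). NHP2 had 217.1 FPKM on HA food and 263.7 FPKM on control food (-0.28). The ratio of Nop60B to NHP2 was 0.92 on HA food and 0.63 on control food. Over the 8 snoRNP core proteins 3 were past the fold upward and 0 downward, with a median of 0.19.

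**Figure D2:**
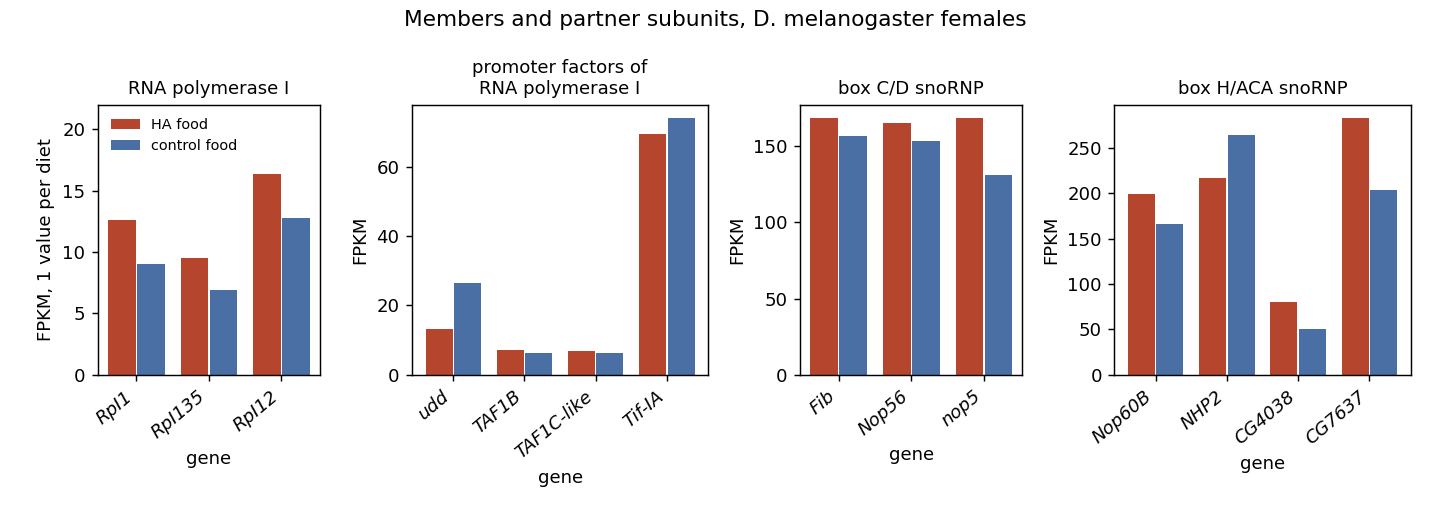
FPKM on HA food (left bar of each pair) and control food (right bar) for genes of RNA polymerase I, its promoter factors, the box C/D snoRNP and the box H/ACA snoRNP, with 1 pooled value per diet, no error available and a separate axis for each panel. The left bar is higher for all 3 polymerase I and all 3 box C/D genes shown, and lower for udd, Tif-IA and NHP2. The fourth box C/D core gene, hoip, is not drawn and was lower on HA food (932 against 978 FPKM).

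Several of these genes carry snoRNA genes in their introns, on the same strand. Intron-hosted snoRNA genes of the annotation were found in Fib (snoRNA:229), Nop60B (snoRNA:Psi18S-1820) and nop5 (snoRNA:nop5-x16-a). All 3 were listed higher on HA food, as were 50.4% of all genes with a mean FPKM of at least 1. The snoRNA genes were chosen after their values were seen and were not compared with snoRNA genes hosted elsewhere. snoRNA:229 had 10.2 FPKM on HA food and 1.24 FPKM on control food, snoRNA:Psi18S-1820 had 25.5 FPKM on HA food and 10.6 FPKM on control food, and snoRNA:nop5-x16-a had 71.8 FPKM on HA food and 41.8 FPKM on control food. These RNAs are 101 to 140 bases long and lack the poly-A tail of messenger RNA, and the libraries were poly-A selected, a step in which such RNAs are not expected to be kept. The part of this in the values was not tested. A further 6 snoRNA genes overlap exons of annotated Nop60B transcripts and were listed at 0 FPKM on both diets.

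Nopp140 encodes a phosphoprotein that shuttles between the nucleolus and Cajal bodies and binds both classes of snoRNP. The gene (FBgn0037137) lies on 3L from 21832774 to 21836685 on the plus strand, with 4 transcripts. It had 75.8 FPKM on HA food and 48.2 FPKM on control food, and its log2 fold change of 0.65 was the highest of the 10. Among all genes with a mean FPKM of at least 1, 1.66% had a higher value. Modulo (mod), another nucleolar protein of abundant mRNA, had 280.8 FPKM on HA food and 199.6 FPKM on control food (log2 fold change 0.49). The 3′ end of Nopp140 overlaps that of P5CDh1, on the opposite strand, by 21 exonic bases.

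The gene bys, for the bystin protein, acts in the assembly of the small ribosomal subunit. It (FBgn0010292) lies on X from 7901880 to 7903643 on the plus strand, with 5 exons, and had 41.3 FPKM on HA food and 35.0 FPKM on control food (log2 fold change 0.24). Of the 8 genes listed for the small subunit processome, 6 were higher on HA food. Past the fold upward was wcd, at 25.9 FPKM on HA food and 20.0 FPKM on control food (0.37), and past it downward was dbe, the KRR1 homologue, at 36.6 FPKM on HA food and 45.2 FPKM on control food (-0.30). The median of this list was 0.18.

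Ns1 encodes nucleostemin, a nucleolar GTPase of large subunit assembly. The gene (FBgn0038473) lies on 3R from 17070523 to 17072675 on the minus strand, with 5 exons, and had 57.6 FPKM on HA food and 50.5 FPKM on control food (log2 fold change 0.19). All 14 genes of the list of large subunit assembly, Ns1 included, were higher on HA food, from 0.0040 for Surf6 to 0.49 for CG6724, with a median of 0.25, and 5 were past the fold. The 5 were CG6724, CG1542, Nnp-1, CG5033 and eIF6. The trimer that CG4364 (Pescadillo), CG5033 (Bop1) and CG6724 (Wdr12) form had unequal differences. CG4364 had 181.8 FPKM on HA food and 168.4 FPKM on control food (0.11), CG5033 35.7 FPKM on HA food and 29.0 FPKM on control food (0.30), and CG6724 19.8 FPKM on HA food and 14.1 FPKM on control food (0.49). The helicase gene pit of the same list, at 38.5 FPKM on HA food and 33.3 FPKM on control food in *D. melanogaster* (0.21), is the only gene of these nucleolar lists that another table names. In *D. simulans* it had 28.4 FPKM on HA food and 37.1 FPKM on control food (log2 fold change -0.38), where the median of all genes was -0.12 and 26.0% of genes were past the fold downward. With that median subtracted its value was -0.26, inside the fold, and 1076 *D. simulans* genes were past the fold upward and 1415 downward, against 455 and 2435 without the subtraction. The difference between the species was not tested.

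**Figure D3:**
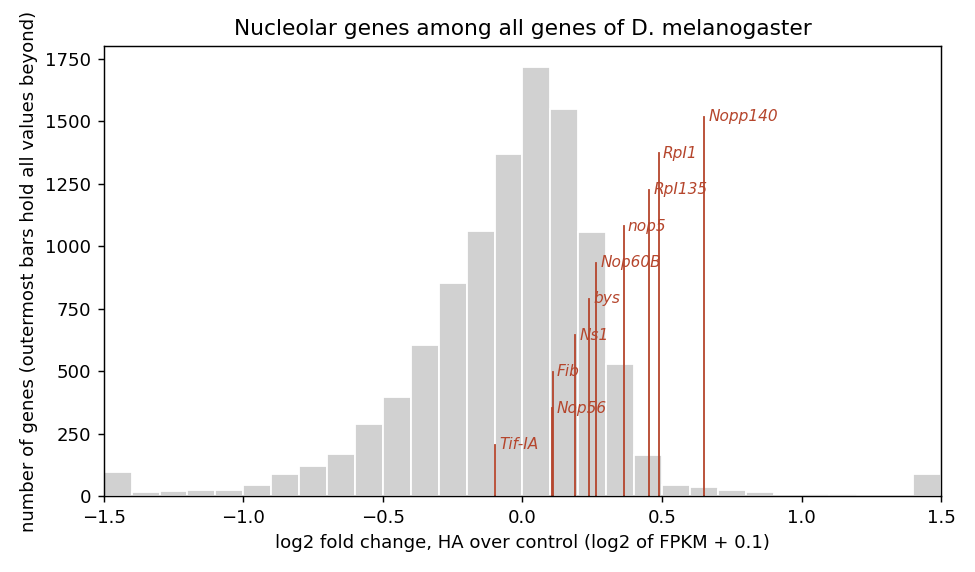
Number of *D. melanogaster* genes (vertical axis, mean FPKM of at least 1, n = 10427) by log2 fold change of HA over control food (horizontal axis, log2 of FPKM + 0.1), with a labelled line at each of the 10 nucleolar genes. Line heights only separate the labels, and the outermost bars hold all values beyond the axis. Tif-IA lies at -0.10, Nopp140 at 0.65 and the other 8 between them.

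Beyond the 10 genes, the nucleolar lists hold 31 others, of which 26 were higher on HA food, 10 were past the fold upward and 2 downward, with a median log2 fold change of 0.21. The RNA exosome, which trims rRNA precursors, had 9 of 11 genes higher and 2 past the fold upward, Rrp6 (0.44) and its helicase partner Mtr4 (0.38), with a median of 0.23. The 4 regulators of ribosome production that were listed, Myc, Mnt, Max and Tor, stayed inside the fold, between 0.02 for Mnt and 0.26 for Tor. Myc had 14.8 FPKM on HA food and 13.1 FPKM on control food (0.18), but the table assigns it the same locus as 18 other genes. The 85 cytosolic ribosomal protein genes with a mean FPKM of at least 1 had a median of 0.13, with 17 past the fold upward and 3 downward.

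Whole females hold many tissues, and the marker genes of these tissues differed between the diets as well. Among 10 markers of the ovarian germline (vas, nos, osk, orb, aub, piwi, otu, BicD, grk and bcd), 9 were higher on HA food, and the median log2 fold change was 0.24, beside 0.25 for the nucleolar genes. Of these 10, 4 were past the fold upward and 1 downward. The summed FPKM of these markers was 495.7 on HA food and 449.7 on control food. vas had 61.4 FPKM on HA food and 49.8 FPKM on control food (0.30), and nos went the other way, with 85.5 FPKM on HA food and 109.1 FPKM on control food (-0.35). Once the germline median was subtracted from every gene, an alternative chosen after the data had been seen, the median of the 10 nucleolar genes was 0.01. Then 5 of the 10 were above 0, Nopp140 alone was past the fold upward, and Tif-IA was past it downward at -0.34. The 11 eggshell genes of the follicle cells had a median of -0.03, with 5 of the 11 higher on HA food. They ran from -1.43 for Cp18, with Cp19 and Cp16 close to it (-1.41 and -1.39), to 0.65 for Cp15, at 1786 FPKM on HA food and 1137 FPKM on control food. Past the fold were 1 upward and 4 downward, with a summed FPKM of 16802 on HA food and 18276 on control food. All 7 midgut enzymes were lower on HA food, with a median of -0.43. Their summed FPKM was 6153 on HA food and 7520 on control food. Of 6 fat body and yolk genes 5 were higher on HA food, with a median of 0.10. Past the fold were Fbp1 (1.14) and Fbp2 (1.16) upward and Lsp2 (-0.73) downward. The part of tissue composition in the nucleolar values was not tested, and in RNA of whole flies more cells of a type and more RNA per cell cannot be told apart. Female RNA was as labelled: the yolk protein genes Yp1, Yp2 and Yp3 had 4202 to 9099 FPKM on HA food and 4199 to 8392 FPKM on control food, and of 7 male genes listed 3 were at 0 on both diets and the summed FPKM was 1.94 on HA food and 2.35 on control food.

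**Figure D4:**
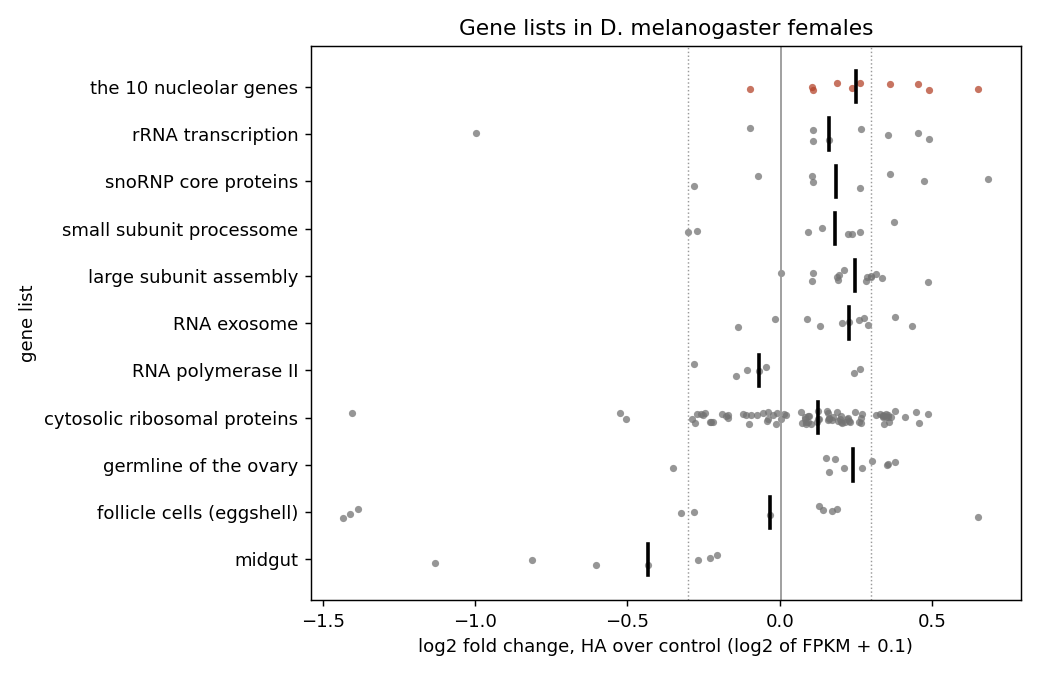
Log2 fold change of HA over control food (log2 of FPKM + 0.1) for each gene (point) of 11 gene lists in *D. melanogaster*, with the list median (black bar), the median of all genes (grey line) and the threshold of 0.3 in each direction (dotted lines). The 10 nucleolar genes and the ovarian germline list have medians of 0.25 and 0.24, RNA polymerase II -0.07 and midgut enzymes -0.43.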

How the data were processed

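For each species, the authors used FASTQC for read quality, Bowtie2 for mapping to its Ensembl assembly, and Cuffdiff with geometric normalization and bias correction. Tool versions are not given in the sources used here. The deposited FPKM values are pooled by the authors over the 3 libraries of a diet. The fold change, test statistic, p and q columns of the tables hold the authors' own comparison and were not used. Differences were computed as log2(FPKM + 0.1), HA over control, for genes with a mean FPKM over both diets of at least 1. The genes and lists were chosen with earlier results of these data known. All 10 genes are named, and of the other lists the genes past a log2 fold change of 0.3 or those at the ends of a list. Genes outside this rule (partner subunits of the 10, marker genes, snoRNA and rRNA genes) were chosen after their values were seen. Positions come from the Ensembl BDGP6 annotation, in which 17512 of 17649 table genes were found by identifier, 17510 of them on the same chromosome. Whether reads were counted by strand is not given in the sources used here, and reads of overlapping genes may have been divided. The *D. melanogaster* table places other genes in the same Cuffdiff locus for Fib, Nop60B, nop5, Nopp140 and RpI1 of the 10. The same holds for other named genes: RpI12, CG3756, l(2)37Cg, TAF1B, CG4038, CG7637, eIF6, CG1542, Surf6, pit, Rrp6, Brf, Myc, Max, Yp1 and, of the germline markers, vas, nos, osk, aub, piwi, otu, BicD and grk. It also holds for Fbp2 and Lsp2. Alternatives were other pseudocounts, filters, thresholds and centrings. The arithmetic was tested on simulated data. Python 3.11.15, pandas 2.3.3, NumPy 2.4.6 and matplotlib 3.10.9 were used.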

Additional observations from a re-analysis of the deposited data

How the results depend on the processing

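With a pseudocount of 1 or none, with centring on the median of all genes, with no filter on low values and with a minimum mean FPKM of 5, 9 of the 10 nucleolar genes stayed higher on HA food, 4 were past the fold, and their median stayed at 0.25. The counts moved with the threshold. At a log2 threshold of 0.2, 6 of the 10 were past it upward and 0 downward. Of the 10427 *D. melanogaster* genes with a mean FPKM of at least 1, 1991 were past it upward and 2741 downward. At 0.5 these were 1 of the 10 nucleolar genes upward, and 242 of the 10427 genes upward and 887 downward. At 1 they were 0, 113 and 178. With no filter on low values 1856 of all 17649 genes were past the fold upward and 3175 downward. With the filter these were 935 (8.97%) and 1887 (18.1%) of 10427. Subtraction of the ovarian germline median was added after the data had been seen. With it 1 of the 10 nucleolar genes was past the fold upward and 1 downward, and their median was 0.011. Of the 10427 genes, 219 were then past it upward and 4325 downward. RpI1 (0.25), RpI135 (0.21) and nop5 (0.12) were then inside the fold. No paired analysis was possible because the tables hold 1 pooled value per diet, and for the same reason no library could be left out. The tables give no read count per gene or library. Read totals per library are given in the study but were not used here, since a total alone does not give the spread between the pooled libraries, and no precision was computed for any value.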

Other observations

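The *D. melanogaster* table also lists the products of these genes' pathway, rRNA transcripts left in the poly-A selected libraries. These genes were chosen after their values were seen, and near-identical copies can share reads. The 3 genes listed as 18SrRNA had 93.5 to 96.1 FPKM on HA food and 123.7 to 127.2 FPKM on control food, and the 2 genes listed as 28SrRNA had 121.7 to 131.9 FPKM on HA food and 165.0 to 172.4 FPKM on control food. The 4 genes listed as pre-rRNA, the precursor that RNA polymerase I makes, were lower on HA food as well, with log2 fold changes between -0.46 and -0.24. Whether their reads came from the precursor or from mature rRNA was not examined. The 4 genes listed as 5.8SrRNA were higher on HA food, between 0.47 and 0.89. At 0 FPKM on both diets were the 4 genes listed as 2SrRNA, so no difference could be described for them. What is left after poly-A selection need not follow the amount of rRNA in the flies, and the part of the selection step in these values was not tested.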
